A study of Mus musculus with 12 samples.

Results

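The peaks described here lie in the 4 mouse Hox gene clusters and were measured by DNase-seq, an assay that maps where DNase I cuts chromatin most readily. Members were all listed peaks that overlapped 1 of 4 windows of genome build mm9 by at least 1 bp, namely chr6:52090000-52230000 (Hoxa), chr11:96040000-96240000 (Hoxb), chr15:102740000-102880000 (Hoxc) and chr2:74490000-74615000 (Hoxd). They numbered 1466 of the 1199935 peaks that 12 replicate lists held on the autosomes and X, and a further 329 came from 4 lists in which the authors pooled replicates. The windows are 140.001, 200.001, 140.001 and 125.001 kb long, and the 500 kb on each side of a window served as its reference.

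The lists come from 2 erythroid lines of strain 129 background. G1E is a GATA-1 null line made by targeted disruption in embryonic stem cells, so it lacks the transcription factor that red cell maturation requires. G1E-ER4 is its derivative in which GATA-1 activity can be induced with estradiol, and all G1E-ER4 samples received 100 nM estradiol for 22 h. Cells were either asynchronous or mitotic, and all were fixed with formaldehyde. To obtain mitotic cells, cultures spent 7 h in nocodazole (200 ng/ml), a drug that stops mitosis, and cells that stained for the mitotic phosphate mark on histone H3 were collected by flow cytometry. There were thus 4 groups of 3 replicate lists, and line, induced GATA-1 and estradiol cannot be told apart. Mitosis and nocodazole cannot be told apart either, since all mitotic samples and no asynchronous sample received the drug. Each line stands for 1 genotype, and the labels do not say that replicates were separate cultures, so p-values measure the spread between these lists, which may be technical.

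Hox genes encode homeodomain transcription factors that set position along the body axis, and their order on the chromosome follows the order in which they are used. In blood they act mostly in stem and progenitor cells and are turned down as cells mature, with loss of expression tied to Polycomb-covered chromatin. Their promoters are commonly rich in CpG dinucleotides. A RefSeq gene table of build GRCm38.p6 lists 39 Hox genes in the clusters, 11 in Hoxa, 10 in Hoxb, 9 in Hoxc and 9 in Hoxd. With rising coordinate it runs from Hoxb13 over Hoxb9 to Hoxb1, from Hoxc13 to Hoxc4 and from Hoxd13 to Hoxd1. That build differs from the build of the peaks, so no peak was tied to a single gene, and the labelled cell type was not checked against marker genes.

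RefSeq promoter sequences of the same table were at hand for 22 of the 39 genes, with 24 start sites. The 250 bases before the start held a median of 12.5 CpG dinucleotides at these 24 sites against 6 over all 32851 promoters, and 19 of the 24 lay above that median. To show this sequence type, the promoter with the most CpGs in each cluster is given 5′ to 3′ on the strand of its gene, with CpG dinucleotides in capitals. Only the Hoxc4 promoter was at hand for Hoxc.
Hoxa13: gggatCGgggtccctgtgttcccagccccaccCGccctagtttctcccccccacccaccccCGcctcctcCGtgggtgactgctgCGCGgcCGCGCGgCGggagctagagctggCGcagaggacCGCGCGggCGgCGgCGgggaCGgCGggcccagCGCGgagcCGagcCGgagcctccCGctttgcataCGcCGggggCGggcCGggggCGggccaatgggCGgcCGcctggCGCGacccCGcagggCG
Hoxb4: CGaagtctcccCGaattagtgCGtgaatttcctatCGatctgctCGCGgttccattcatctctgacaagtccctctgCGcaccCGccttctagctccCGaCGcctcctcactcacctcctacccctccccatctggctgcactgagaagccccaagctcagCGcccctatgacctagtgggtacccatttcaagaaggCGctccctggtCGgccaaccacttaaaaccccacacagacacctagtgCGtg
Hoxc4: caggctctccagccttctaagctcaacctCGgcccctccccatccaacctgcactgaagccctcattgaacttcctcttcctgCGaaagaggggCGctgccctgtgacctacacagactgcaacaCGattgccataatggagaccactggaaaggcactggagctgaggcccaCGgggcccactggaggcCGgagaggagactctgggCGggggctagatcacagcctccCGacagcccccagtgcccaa
Hoxd13: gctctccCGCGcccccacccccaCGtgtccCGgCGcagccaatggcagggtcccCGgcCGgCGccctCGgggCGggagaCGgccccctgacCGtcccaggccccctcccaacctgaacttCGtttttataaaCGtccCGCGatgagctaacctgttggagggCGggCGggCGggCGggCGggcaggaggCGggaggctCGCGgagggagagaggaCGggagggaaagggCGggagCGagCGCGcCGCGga
These 4 sequences hold 35 CpGs in Hoxa13, 14 in Hoxb4, 8 in Hoxc4 and 31 in Hoxd13. The letters GATAA, the core that GATA factors bind, or their complement TTATC, occur in 5 of the 24 Hox promoters (20.8%) and in 22.6% of all promoters of this length. A match in these letters is a description and does not place a factor there.

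Each list was limited to 100000 peaks, ranked by a signal of unstated scale, so read depth is unknown and a cluster can gain listed peaks only as other sites lose them. Lists differed in peak width: they covered 45.0 to 113 Mb in asynchronous G1E cells and 64.9 to 181 Mb in the other 9 lists, and the replicate 1 list covered the most in every group. The number of listed Hox peaks was 52, 64 and 63 in the 3 asynchronous G1E lists. It was 108, 168 and 171 in mitotic G1E, 112, 161 and 121 in asynchronous G1E-ER4, and 88, 176 and 182 in mitotic G1E-ER4. The asynchronous G1E lists were the lowest of all 12 in this total, with no overlap. By single window, these 3 lists held fewer peaks than the other 9 in 13.8% of the genome windows described below. In Hoxc their counts overlapped those of the other lists (22 to 36 against 25 to 40). As the share of base pairs in a window that peaks covered does not depend on how a wide stretch is split into peaks, it is the main measure below.

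In Hoxa, asynchronous G1E cells had almost no listed accessibility, and both mitotic G1E cells and G1E-ER4 cells had a great deal. The 3 asynchronous G1E lists covered 3.64%, 0.899% and 0.596% of the window with 6, 3 and 2 peaks. The 3 mitotic G1E lists covered 29.0%, 42.6% and 27.8% with 28, 44 and 41 peaks. All 3 mitotic lists thus lay above all 3 asynchronous ones, which was the case in 31.3% of the genome windows described below. In G1E-ER4, the share was 62.9%, 42.1% and 17.7% in asynchronous and 77.0%, 37.2% and 32.2% in mitotic cells. These 6 lists overlapped between stages, and the spread within each stage was wide, with replicate 1 highest.

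Hoxd gave the same picture. Asynchronous G1E lists covered 4.75%, 1.71% and 2.71% of its window with 8, 6 and 8 peaks. Mitotic G1E lists covered 18.9%, 42.4% and 28.3% with 23, 39 and 37 peaks, again without overlap. In G1E-ER4 the share was 64.1%, 44.5% and 18.7% in asynchronous and 79.3%, 33.2% and 30.5% in mitotic cells, so that the stages overlapped.

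In Hoxb, asynchronous G1E cells held more than in Hoxa and Hoxd. Their lists covered 10.5%, 4.09% and 5.43% with 16, 19 and 18 peaks, against 23.1%, 37.4% and 27.3% with 32, 52 and 53 peaks in mitotic G1E. In G1E-ER4 the share was 55.2%, 28.6% and 14.1% in asynchronous and 58.7%, 26.4% and 19.3% in mitotic cells. The asynchronous G1E lists were below all others here too, by a smaller margin.

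Hoxc had no such gap. Asynchronous G1E lists covered 37.2%, 12.7% and 23.9% of it with 22, 36 and 35 peaks. Mitotic G1E lists covered 33.2%, 39.0% and 31.7% with 25, 33 and 40 peaks, a range that overlaps the asynchronous values. In G1E-ER4 the share was 57.2%, 35.1% and 25.3% in asynchronous and 54.0%, 27.8% and 21.2% in mitotic cells. All 4 groups overlapped in Hoxc. Of the base pairs that Hox peaks covered, Hoxc held 60.6% to 69.0% in asynchronous G1E lists and 18.9% to 31.7% in the other 9.

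**Figure D1:**
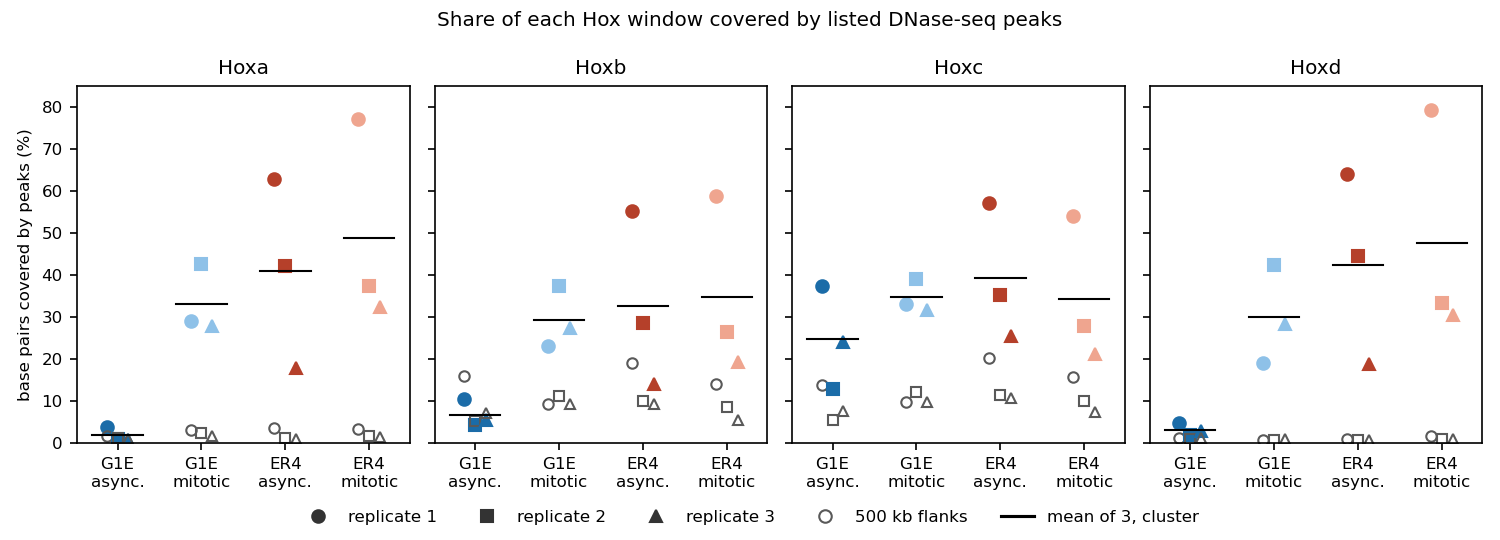
Percent of base pairs covered by listed peaks (y axis) in each Hox window (filled symbols, colour by group) and in its 500 kb flanks (open symbols) for the 12 replicate lists, with the group mean as a line; ER4 is G1E-ER4. In Hoxa the 3 asynchronous G1E lists sit at 3.64% or less and the other 9 at 17.7% or more, while in Hoxc the groups overlap.

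The differences were tested with limma on log2(percent covered + 1), fitted over 7659 windows, which are the 4 clusters and the 150 kb windows of the autosomes and X with a mean covered share of at least 1%. Mitotic G1E cells exceeded asynchronous ones by 3.80 ± 0.55 (SE) on this scale in Hoxa (adjusted p = 0.00237, limma with Benjamini-Hochberg adjustment, n = 3 and 3). The difference was 2.93 ± 0.54 in Hoxd (limma adjusted p = 0.00405) and 2.04 ± 0.54 in Hoxb (limma adjusted p = 0.0187). It was 0.59 ± 0.46 in Hoxc and did not pass the threshold of 0.05 (limma adjusted p = 0.366), though without the 4 replicate 1 lists, an alternative chosen after seeing the data, it was 0.97 (limma adjusted p = 0.0345). A rise of this kind was common: 16.5% of the windows were called higher and the median window differed by 0.40, and a difference at least as high was found in 0.274% of windows for Hoxa, 2.13% for Hoxd and 8.28% for Hoxb. The Hoxb call was lost without replicate 2 or 3 of asynchronous G1E or replicate 2 of mitotic G1E (limma adjusted p up to 0.0823) and with the 50000 highest peaks of each list (0.0832), where Hoxd also missed the threshold (0.0578). With no filter on windows of low coverage Hoxb missed it too (0.0609).

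Between the lines, asynchronous G1E-ER4 exceeded asynchronous G1E by 3.95 ± 0.55 in Hoxa (limma adjusted p = 0.000435) and by 3.33 ± 0.54 in Hoxd (limma adjusted p = 0.00130). The difference was 2.02 ± 0.54 in Hoxb (limma adjusted p = 0.0221) and 0.69 ± 0.46 in Hoxc (limma adjusted p = 0.306). Here 15.2% of all windows were called higher and the median difference was 0.47. In Hoxa, Hoxb and Hoxd all 3 G1E-ER4 lists lay above all 3 G1E lists, as in 26.8% of windows. This comparison uses the same asynchronous G1E lists as the stage comparison in G1E, so both sets of values rest on those 3 lists. The Hoxb call was lost without replicate 2 or 3 of asynchronous G1E or replicate 1 of asynchronous G1E-ER4 (limma adjusted p up to 0.0991), with the 50000 highest peaks (0.0879) and with no filter on windows of low coverage (0.0749). The 2 comparisons without them gave no call in any cluster. Mitotic minus asynchronous cells within G1E-ER4 lay between -0.22 and 0.31 (limma adjusted p of 0.935 or more, 0% of windows called), and G1E-ER4 minus G1E in mitotic cells between -0.11 and 0.59 (limma adjusted p = 1.00 for each cluster, 0.522% of windows called higher). With SEs of 0.46 to 0.55, these fits do not show that the groups were alike.

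Averaged over both lines, mitotic cells exceeded asynchronous ones by 2.06 ± 0.39 in Hoxa and 1.56 ± 0.38 in Hoxd (limma adjusted p = 0.0129 and 0.0252), with 8.13% of windows called higher. Hoxb, at 1.09 ± 0.38, and Hoxc, at 0.19 ± 0.33, did not pass (limma adjusted p = 0.0770 and 0.729). Averaged over both stages, G1E-ER4 exceeded G1E by 2.21 ± 0.39 in Hoxa and 1.96 ± 0.38 in Hoxd (limma adjusted p = 0.00338 and 0.00694), with 4.31% of windows called higher. Hoxb, at 1.07 ± 0.38, and Hoxc, at 0.29 ± 0.33, did not pass (limma adjusted p = 0.126 and 0.645). An exact permutation test of the same averages (two-sided, 400 arrangements) gave unadjusted p of 0.035 in Hoxa and 0.045 in Hoxd by stage, where 21.6% of windows lay under 0.05, and 0.020 in each by line, where 13.0% did. Adjusted over all windows none passed (exact permutation adjusted p = 0.191 and 0.208 by stage, 0.269 for each by line), and neither did any other of the 7659 windows. With 400 arrangements the smallest possible p is 0.005, so a window can pass only if many others also reach low values. This outcome therefore does not show that the groups were alike, and the calls of these averages rest on the limma model. The Hoxd limma call by stage was lost in 6 of 12 fits that left out 1 list (replicate 2 or 3 of asynchronous G1E, replicate 2 of mitotic G1E, replicate 2 or 3 of asynchronous G1E-ER4, replicate 1 of mitotic G1E-ER4; limma adjusted p up to 0.0656). The stage difference in G1E-ER4 minus that in G1E was -3.48 in Hoxa, -2.73 in Hoxd, -1.90 in Hoxb and -0.81 in Hoxc on the log2 scale, and none of the 4 passed in the covered share (limma adjusted p = 0.0524, 0.0889, 0.189 and 0.478, 0% of windows called). This result depended on the setting: the difference passed in Hoxa and Hoxb with 300 bp around each summit (limma adjusted p = 0.0150 and 0.0460), in Hoxa and Hoxd after scaling to the share of the list (0.00244 and 0.0181), in Hoxa with windows of 50 kb (0.0450), and in Hoxa, Hoxb and Hoxd without the 4 replicate 1 lists (0.00234, 0.00725 and 0.00297). It also passed in Hoxa and Hoxd without replicate 1 of asynchronous G1E (0.0268 and 0.0408) or replicate 3 of asynchronous G1E-ER4 (0.0409 and 0.0444), and in Hoxa without replicate 1 of mitotic G1E-ER4 (0.0437).

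**Figure D2:**
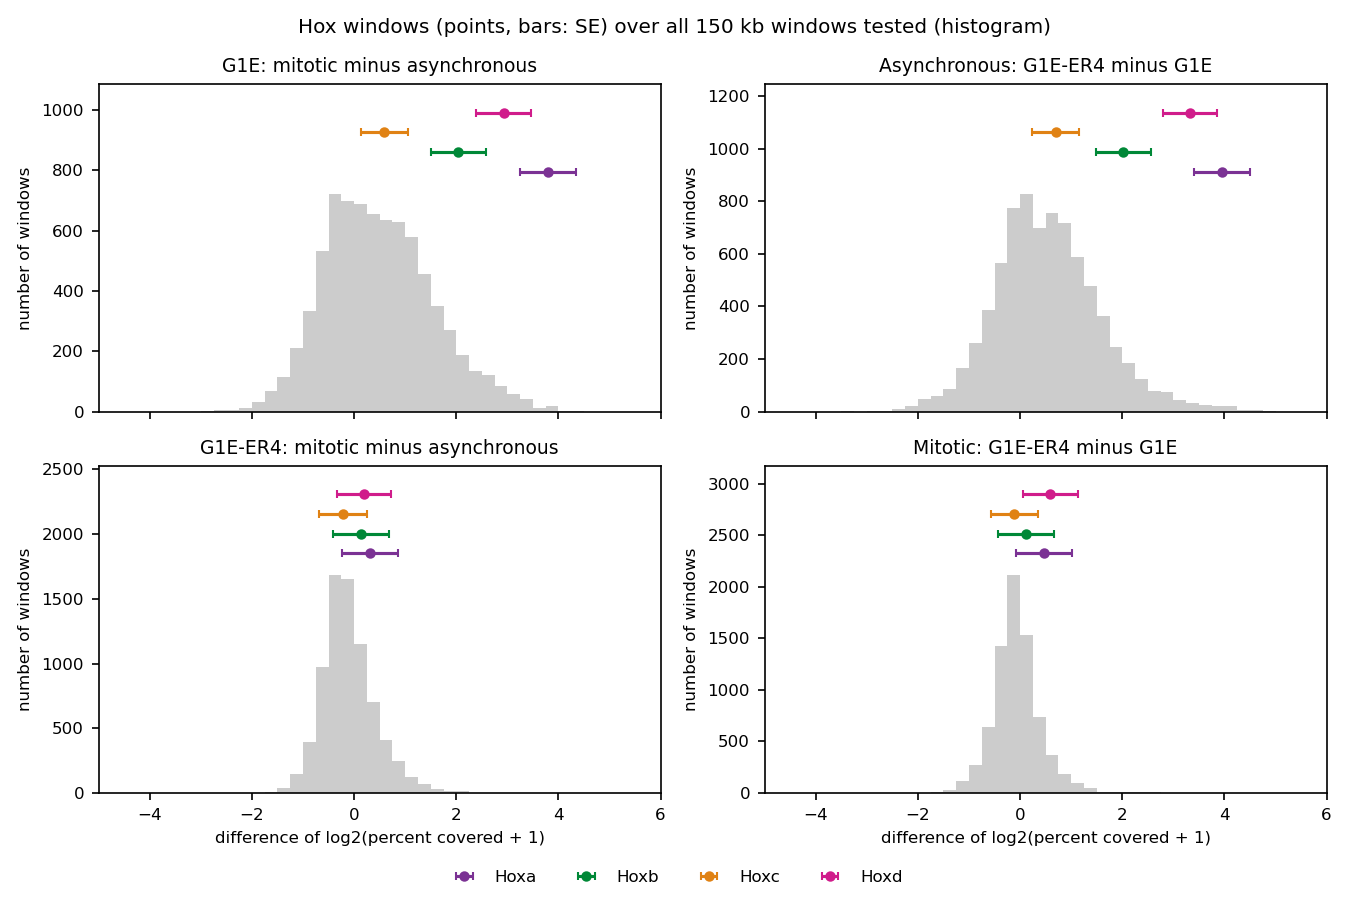
Distribution over all windows tested (grey bars, number of windows) of 4 differences in log2(percent covered + 1), with the 4 Hox windows as points and SE bars. In both panels that involve asynchronous G1E lists, Hoxa and Hoxd lie in the right tail, while Hoxc lies in the body, and in both other panels the 4 clusters lie between -0.22 and 0.59, with 7.91% of windows at least as high as Hoxd by line in mitotic cells.

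Peak counts gave the same order of clusters. Peaks per 100 kb in mitotic G1E cells exceeded those in asynchronous cells by 3.00 ± 0.45 in Hoxa, 1.97 ± 0.39 in Hoxd and 1.25 ± 0.22 in Hoxb on the log2(peaks per 100 kb + 1) scale (limma adjusted p of 0.00198 or less for each, 21.0% of windows called higher). Hoxc differed by 0.08 ± 0.23 (limma adjusted p = 0.808). Averaged over both lines, mitotic cells had more peaks in Hoxa (1.46 ± 0.32), Hoxd (1.04 ± 0.28) and Hoxb (0.69 ± 0.16) (limma adjusted p of 0.0117 or less for each, 17.7% of windows called higher). The Hoxd call was lost with the 50000 highest peaks (0.89, limma adjusted p = 0.0594), and by exact permutation none of the 3 passed (unadjusted p = 0.055, 0.045 and 0.035, adjusted p = 0.231 for each). Averaged over both stages, G1E-ER4 had more peaks in Hoxa (1.33 ± 0.32, limma adjusted p = 0.0156, 8.57% of windows called higher), while Hoxb and Hoxd did not pass (limma adjusted p = 0.0559 and 0.0690). Hoxd passed without replicate 1 of mitotic G1E-ER4 (1.09, limma adjusted p = 0.00531). By exact permutation Hoxa did not pass by line (adjusted p = 0.231). For this measure the stage difference differed between the lines in Hoxa, Hoxb and Hoxd (limma, 7.27% of windows called lower), with values given in the closing section.

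The 3 asynchronous G1E lists lay below all 9 other lists in covered share in Hoxa, Hoxb and Hoxd, but not in Hoxc. This was so in 17.6% of windows, and in peak number in 13.8%. Scaling the share to the share of the genome that the same list covered kept the contrast. On this ratio Hoxa stood at 0.273 to 0.848 in asynchronous G1E, below the genome average, and at 5.54 to 13.9 in the other 9 lists. Hoxd stood at 1.00 to 1.25 against 3.85 to 14.3, and Hoxb at 2.40 to 2.49 against 4.41 to 10.6. Hoxc stood at 7.44 to 10.98 against 6.73 to 10.5, ranges that overlap. With this scaling the median window no longer rose in mitotic G1E cells (median difference -0.11), 21.4% of windows were called higher and 25.2% lower, and Hoxa, Hoxb and Hoxd stayed higher by 3.41, 1.44 and 2.40.

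The ranges of flank coverage overlapped around all 4 clusters, and flanks were not tested between groups. In the 500 kb flanks, asynchronous G1E lists covered 0.854% to 1.66% around Hoxa against 0.967% to 3.38% in the other 9 lists, and 0.868% to 1.05% around Hoxd against 0.521% to 1.62%. Around Hoxb the flank share was 5.08% to 15.8% against 5.27% to 18.9%, and around Hoxc 5.37% to 13.7% against 7.32% to 20.2%. Around Hoxa the flank mean was 1.18 ± 0.43% (SD, n = 3) in asynchronous and 2.30 ± 0.79% in mitotic G1E, so it went in the same direction as the cluster. Around Hoxd the flanks did not rise with the cluster. They stood at 1.05%, 0.868% and 0.982% in asynchronous and 0.579%, 0.691% and 0.927% in mitotic G1E.

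On average over the 12 lists, every cluster was covered more than its flanks, though not in every list. The 12 lists come from 4 groups, so these SDs and p-values also hold differences between groups. The mean difference was 29.9 ± 24.0 percentage points (SD, n = 12) in Hoxd and 22.1 ± 9.07 in Hoxc, positive in 12 of 12 lists for both (adjusted p = 0.00244, two-sided exact sign-flip permutation test over lists, adjusted over 10 comparisons; before adjustment 0.000488, the smallest this test allows). It was 29.3 ± 23.1 in Hoxa, positive in 10 lists, and 15.6 ± 15.2 in Hoxb, positive in 9 lists (exact permutation adjusted p = 0.00651 and 0.0127). The exceptions were asynchronous G1E lists: replicates 2 and 3 in Hoxa and all 3 in Hoxb fell below their flanks. The Hoxb flanks were uneven in these 3 lists, with 24.4%, 7.91% and 11.2% on the low-coordinate side and 7.33%, 2.24% and 2.86% on the other. Hoxb itself, at 10.5%, 4.09% and 5.43%, lay between the sides in each. Between clusters, Hoxb minus Hoxc was -7.36 percentage points, lower in 11 of 12 lists (exact permutation adjusted p = 0.0127). Without the 3 asynchronous G1E lists Hoxb minus Hoxc was -3.83 points and did not pass (exact permutation adjusted p = 0.0725), while Hoxa minus Hoxb was then 8.74 and Hoxb minus Hoxd -7.77 points (exact permutation adjusted p = 0.00781 and 0.0195). The other 5 pairs did not pass over 12 lists.

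The peak map shows where in each cluster this happened. In Hoxa, the only sites that all 3 asynchronous G1E lists held were a peak of 890, 599 and 530 bp from chr6:52171400-52172289 (its extent in replicate 1) and a peak of 500, 466 and 304 bp from chr6:52206937-52207436. Replicate 1 listed 4 more peaks and replicate 2 listed 1 more. In Hoxd, all 3 lists had peaks near chr2:74501625-74502047, chr2:74532180-74532504, chr2:74540068-74540711 and chr2:74553666-74554687, and 1 or 2 peaks within chr2:74509765-74511684, which in replicate 1 was a single peak of 1920 bp. The peak at chr2:74553666-74554687 ranked 12995, 7740 and 4669 in the 3 lists, where 1 is the highest signal, so it belonged to the strong peaks of these cells. The widest Hoxa peak was narrower in each of these 3 lists than in any other list, while median Hoxa peak widths overlapped (417 to 905 bp against 712 to 6993 bp). Widest peaks overlapped in Hoxb, Hoxc and Hoxd, and how many windows of the genome share the Hoxa pattern was not computed. Over whole lists, the median peak was 760, 356 and 415 bp wide in asynchronous G1E and 471 to 1192 bp in the other 9.

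**Figure D3:**
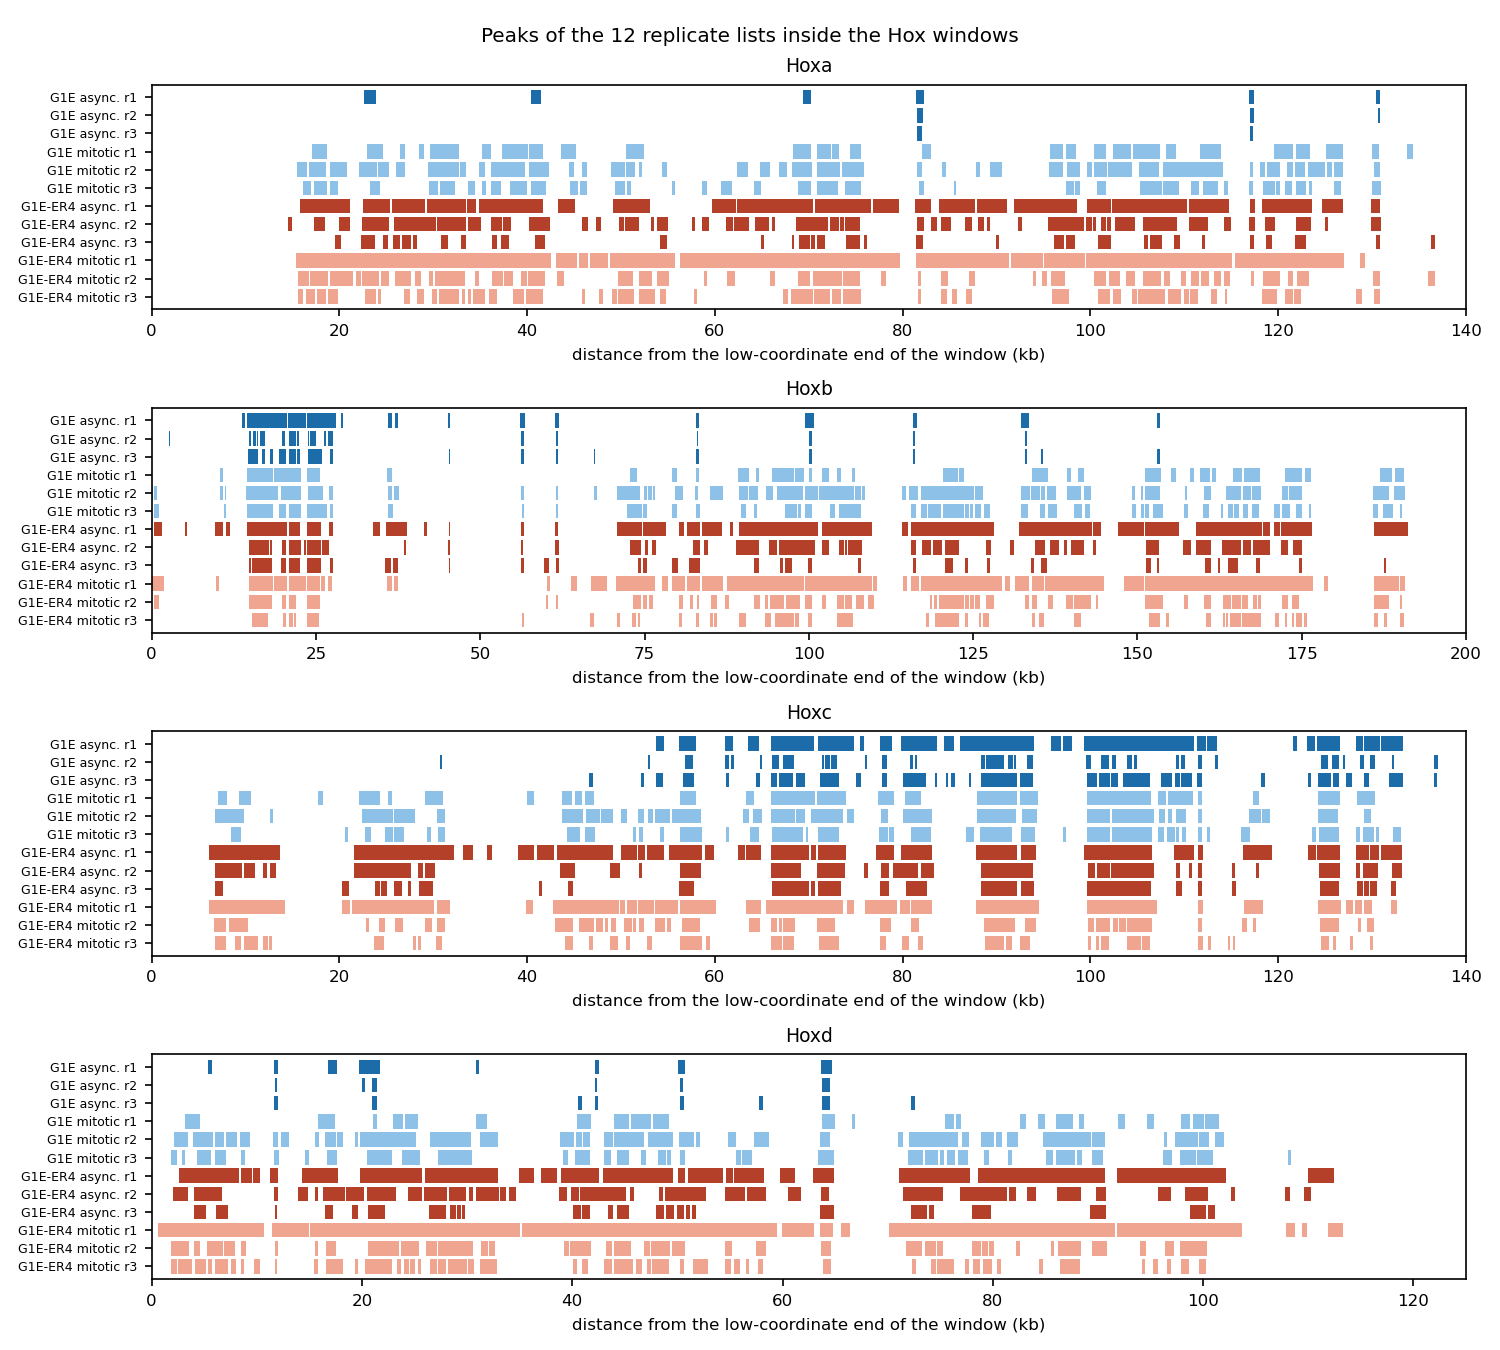
Extent of every listed peak (bars) in the 12 replicate lists (rows, coloured by group) along each Hox window, in kb from its low-coordinate end. The top 3 rows, asynchronous G1E, hold a few narrow peaks in Hoxa and Hoxd, peaks at the low end of Hoxb and in the high part of Hoxc, and the other 9 rows hold more peaks in Hoxa, Hoxb and Hoxd, from 14.1% to 79.3% of the window covered.

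Position mattered within Hoxb and Hoxc. Each window was split at its midpoint after the values had been seen, so these values are a description without a test. In the part of Hoxb with the lower coordinates, mean coverage was 11.5 ± 5.68% (SD, n = 3) in asynchronous G1E. The means of the other 3 groups were 24.3% to 28.8%, with SDs up to 16.27. Lists overlapped in this part: replicate 1 of asynchronous G1E, at 17.93%, lay above replicate 3 of asynchronous G1E-ER4 (17.79%) and of mitotic G1E-ER4 (15.03%). All remaining lists of the other groups lay above it. In the part with the higher coordinates mean coverage was 1.86 ± 1.06% against 34.2% to 42.7%. Lists did not overlap there, at 3.02% or less against 10.37% or more. In Hoxc it was the other way round. Its part with the lower coordinates was covered to 9.08 ± 3.37% in asynchronous G1E against 28.5% to 36.8%, and its part with the higher coordinates to 40.2 ± 21.2% against 32.0% to 41.6%. By the gene order of the GRCm38.p6 table, lower coordinates are the Hoxb13 side of Hoxb and the Hoxc13 side of Hoxc. In Hoxa and Hoxd both parts were low, at 1.43% and 2.00% in Hoxa and 4.55% and 1.56% in Hoxd.

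**Figure D4:**
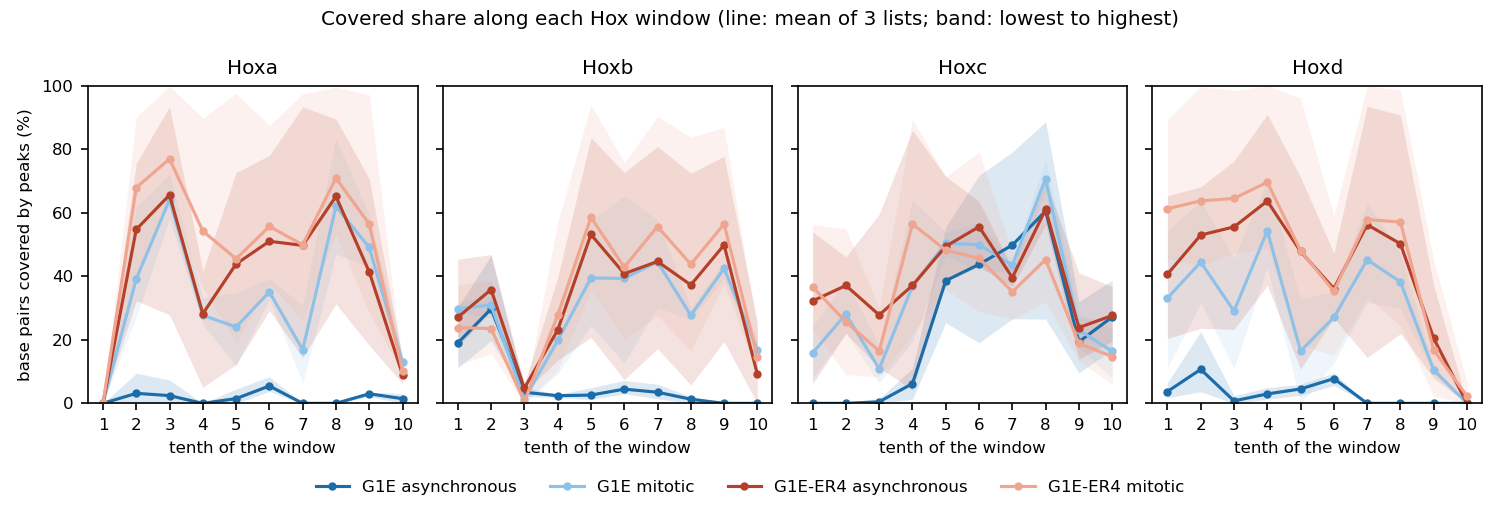
Percent of base pairs covered (y axis) in 10 equal parts of each window from low to high coordinate (x axis); lines are means of 3 lists and bands run from the lowest to the highest list. Asynchronous G1E has a mean of at most 5.49% in any part of Hoxa and 10.7% in any part of Hoxd, reaches 29.8% in the second part of Hoxb, and goes from 6.22% in the fourth to 38.7% in the fifth part of Hoxc.

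Base by base, 7.447 kb of Hoxa were covered in all 9 lists other than asynchronous G1E, and 5.56 kb of these (74.7%) were in no asynchronous G1E peak. The share was 63.0% of 4.253 kb in Hoxd, 36.7% of 10.163 kb in Hoxb and 2.99% of 14.508 kb in Hoxc. These shares were not computed outside the Hox windows, so they cannot be set against the rest of the genome. In all, asynchronous G1E lists covered 45.0 to 113 Mb and the other 9 lists 64.9 to 181 Mb. The longest stretch of this kind, covered in all 9 lists and in none of the 3, was 1177 bp at chr11:96160733-96161909 in Hoxb, followed by 1087 bp at chr6:52164372-52165458 in Hoxa. In the other direction, asynchronous G1E lists covered nothing in Hoxa and Hoxd that no other list covered, 1.905 kb in Hoxb and 8.403 kb in Hoxc. The 9 lists with broad Hoxa coverage shared only part of it: of the 22.7 kb of Hoxa in all 3 mitotic G1E lists, 61.3% were in all 3 mitotic G1E-ER4 lists, which is 44.7% of the latter. Lists of 1 group also differed, as the 3 mitotic G1E lists covered 40.6, 59.7 and 39.0 kb of Hoxa each. Whether placement differed between groups was not tested.

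Merging the peaks of the 12 lists gave 265371 regions, 90 of which meet a Hox window, 15 in Hoxa, 33 in Hoxb, 33 in Hoxc and 9 in Hoxd. Of these, 18 were in all 12 lists, 2, 6, 8 and 2 by cluster, which is 20% of Hox regions and 6.15% of all regions. No Hox region was in all 6 lists of a stage or of a line and in none of the other 6, a pattern that 0.340%, 0.0271%, 0.0848% and 0.0358% of all regions had (asynchronous, mitotic, G1E-ER4 and G1E). Within G1E, 9 of the 90 regions were in all 3 mitotic and no asynchronous list, 4 in Hoxa, 3 in Hoxb, 1 in Hoxc and 1 in Hoxd, with 2.19% of all regions alike. None was in all 3 asynchronous and no mitotic G1E list (2.97% of all regions). Of the 1570 regions in every list but the asynchronous G1E ones (0.592% of all), 6 lay in Hox windows, 3 in Hoxa and 1 in each other cluster. A merged region counts as present once 1 peak of a list falls in it, however narrow.

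The widest regions were 27.145 kb at chr6:52105375-52132519 in Hoxa, 25.603 kb at chr11:96191102-96216704 in Hoxb, 11.72 kb at chr15:102839274-102850993 in Hoxc and 48.149 kb at chr2:74501302-74549450 in Hoxd. The median region of the genome was 629 bp wide. The widest Hoxa region is a single peak in mitotic G1E-ER4 replicate 1, with 27145 bp, while the widest Hoxa peak of the other 11 lists was between 530 and 7965 bp. The 3 asynchronous G1E lists had widest Hoxa peaks of 1328, 599 and 530 bp, below the 1586 bp or more of the other 9. The share of all windows with this pattern was not computed. By exact permutation, neither peak numbers, widths nor best or median ranks of any cluster passed by stage or line after adjustment (63 two-sided exact permutation tests, smallest adjusted p = 0.0787, smallest p possible 0.005 before adjustment). These tests include those of Hoxc against the other 3 clusters given above. A test alone at that smallest p could not pass over 63 tests, so this outcome does not show that the groups were alike. For peak number, limma gave the calls described above.

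In signal rank, Hoxc stood highest. Its best peak ranked between 569 and 4473 in the 12 lists, against 2763 to 6365 in Hoxb, 2164 to 27097 in Hoxd and 6428 to 23674 in Hoxa. The region at chr15:102791790-102798795 had the best mean rank, 2764 ± 1912 (SD, n = 12 lists), followed by chr15:102826151-102834531 with 4178 ± 3926 and, in Hoxb, chr11:96054362-96063554 with 4887 ± 1208. That Hoxb region ranked 4819, 5954 and 6159 in asynchronous G1E and 2763 to 6365 in the other lists, so its ranks in asynchronous G1E lay within the range of the other lists. It lies in the low-coordinate part of Hoxb. The 2 Hoxa regions in all 12 lists, at chr6:52205419-52216973 and chr6:52171313-52181303, had mean ranks of 21377 ± 9550 and 27113 ± 17658.

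Ranks of regions in all 12 lists were compared with limma on log2 rank over 16323 regions. Mitotic cells had better ranks than asynchronous cells in 3 of the 18 Hox regions, all in Hoxc, against 13.4% of all such regions. G1E-ER4 had better ranks than G1E in 4, of which 2 lie in Hoxb, 1 in Hoxa and 1 in Hoxc, against 6.58% of all. None of the 18 had a worse rank in mitotic cells or in G1E-ER4 by this test, against 9.04% and 5.16% of all. Not all went toward better ranks. The Hoxd region chr2:74549745-74554965, picked after its values were seen, ranked 7911, 7794 and 9986 in asynchronous and 24977, 25424 and 56927 in mitotic G1E-ER4. That stage difference was 1.96 ± 0.69 on the log2 rank scale and did not pass (limma adjusted p = 0.139). The Hoxc region chr15:102805428-102814863, singled out after its values were seen, was called by stage and by line. It ranked 14437, 15058 and 13353 in asynchronous G1E, 4675, 5398 and 4277 in mitotic G1E, 7002, 5305 and 5947 in asynchronous G1E-ER4 and 3594, 2661 and 3158 in mitotic G1E-ER4. The asynchronous lists ranked it lower than the mitotic lists of the same line without overlap (log2 rank difference -1.27 ± 0.25 over both lines, limma adjusted p = 0.00377), and G1E lower than G1E-ER4 at each stage (-0.93 ± 0.25, limma adjusted p = 0.0270). How many of the 16323 regions share this lack of overlap was not computed. Leaving out 1 list moved the number of regions called to between 1 and 5 of 18 for either contrast. By stage it fell to 1 without replicate 3 of asynchronous or mitotic G1E, replicate 1 or 3 of asynchronous G1E-ER4 or replicate 2 of mitotic G1E-ER4, and rose to 5 without replicate 1 of mitotic G1E. By line it fell to 1 or 2 without replicate 2 or 3 of asynchronous G1E, replicate 1 or 2 of asynchronous G1E-ER4 or replicate 1 or 2 of mitotic G1E-ER4. By an exact permutation test with the same adjustment, 2 of the 18 were called by stage, beside 1974 of all 16323 regions, and 0 of the 18 and 0 of all regions by line. At an unadjusted p under 0.05 by line were 8 of the 18 and 24.3% of all regions.

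**Figure D5:**
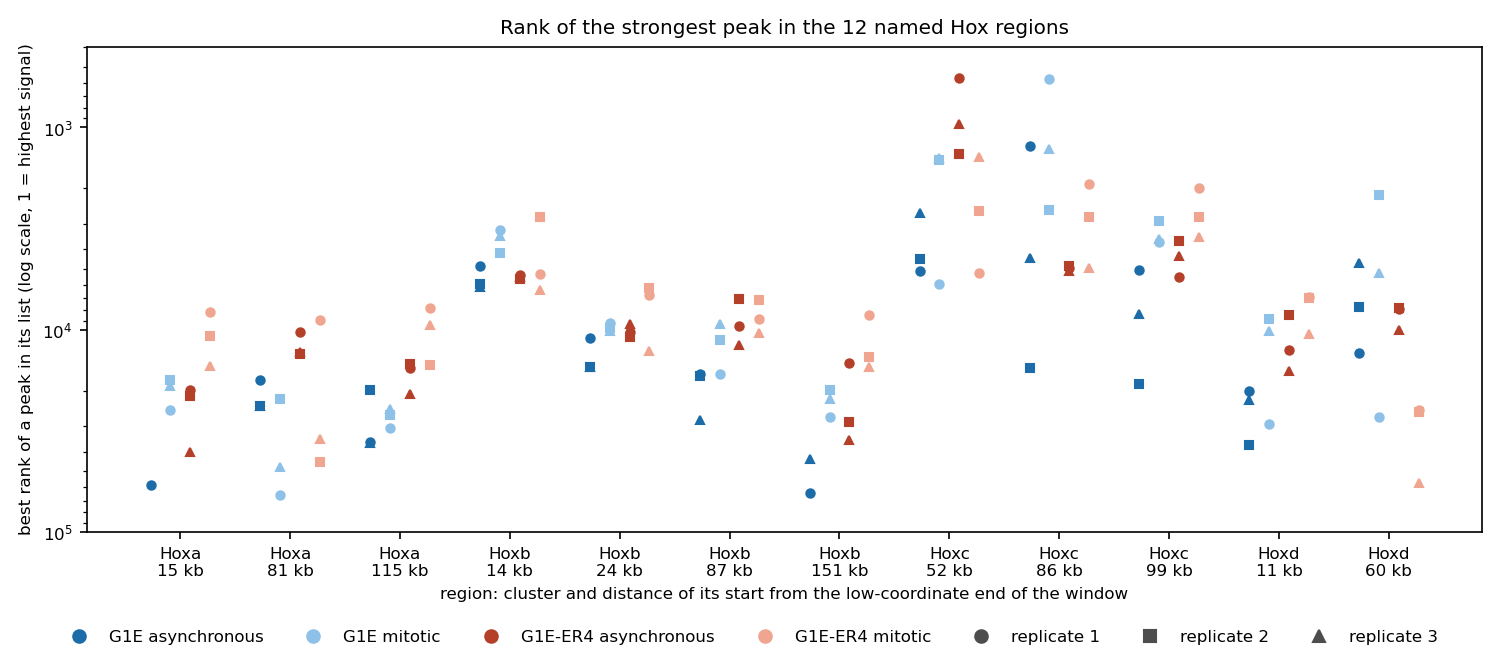
Best rank of a peak (y axis, log scale, 1 is the highest signal) in the 12 named Hox regions (x axis, cluster and distance of the region's start from the window's low end) for each list that has one, coloured by group with a symbol per replicate. The 3 Hoxc regions reach ranks of 569 to 18524, and the Hoxa regions lie between 7819 and 65651.

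The authors' pooled lists, in which the 3 replicates of a group were joined, give the same order. They covered 3.07% of Hoxa, 9.96% of Hoxb, 43.9% of Hoxc and 4.67% of Hoxd in asynchronous G1E. In mitotic G1E the pooled shares were 60.1%, 48.7%, 54.0% and 55.7%. In asynchronous G1E-ER4 they were 71.5%, 60.6%, 61.0% and 75.1%, and in mitotic G1E-ER4 79.6%, 60.7%, 58.4% and 78.9%. Pooled lists have no replicates, so these values carry no error and no test.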

How the data were processed

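DNase-seq peak lists of 12 replicate samples (4 groups of 3) and 4 pooled lists were used. Reads were aligned with Bowtie to mm9, per the submitters' processing notes. The labels and files name neither the peak caller nor the scaling of the signal column in the deposited lists. Each deposited list holds 100000 peaks by falling signal, so signal was used only as a rank, and read depth is unknown. The members and lists were chosen with earlier results of these data known. Covered share and peak number were computed per window (Python 3.11.15, pandas 2.3.3) and tested with limma 3.58.1 (R 4.3.3; trend, Benjamini-Hochberg adjustment, threshold 0.05, pseudocount 1) over 7659 of 17566 windows of 150 kb (mean covered share of at least 1%, Hox windows added). Flanks and pairs of clusters were tested by exact sign-flip permutation (scipy 1.17.1), ranks with limma. Regions were named by rule: in each cluster the widest, the 3 of best mean rank among those in all 12 lists, and any confined to a stage or line. On simulated data for the stage comparison in G1E over 7659 windows, 4, 25, 45 and 50 of 50 windows changed by log2 1, 2, 3 and 4 were found, with 10 false calls. Alternatives covered peak width, list length, scaling, pseudocount, filter, window and flank size, and leaving out lists.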

Additional observations from a re-analysis of the deposited data

Results flagged for a closer look

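The change in Hox peak number between mitotic and asynchronous cells differed between the lines by a direct test of that difference. The stage effect in G1E-ER4 minus that in G1E, in log2(peaks per 100 kb + 1), was -3.08 ± 0.63 (SE) in Hoxa, -1.11 ± 0.31 in Hoxb and -1.86 ± 0.56 in Hoxd (limma adjusted p = 0.0104, 0.0405 and 0.0487, with 7.27% of windows called lower). Hoxc, at 0.12 ± 0.33, did not pass (limma adjusted p = 0.842). Hoxa kept its call in every fit that left out 1 list, while Hoxb and Hoxd each lost it in 9 of 12 (limma adjusted p up to 0.104 and 0.120). With the 50000 highest peaks of each list, Hoxb gave -0.76 and Hoxd -1.23 (limma adjusted p = 0.323 and 0.362). By exact permutation none of the 3 passed (adjusted p = 0.231 for each). The covered share gave the same sign in these 3 clusters and no call as set out in the report, but it was called in several alternatives, among them scaling to the list (Hoxa -2.87 and Hoxd -1.98, limma adjusted p = 0.00244 and 0.0181) and 300 bp around each summit (Hoxa -2.41 and Hoxb -0.95, limma adjusted p = 0.0150 and 0.0460).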

How the results depend on the processing

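Of 364 alternatives other than leaving out 1 list, 300 kept direction and side of the threshold, as did 664 of 744 that left out 1 list; the cause was not tested where they did not. In covered share by stage, Hoxb passed with 300 bp around each summit (0.599), scaling to the list (0.896), and without all 4 replicate 1 libraries (1.34, chosen after seeing the data), and ranged from 0.849 to 1.32 without 1 list. Hoxc turned to -0.034 with scaling and ranged from -0.0080 to 0.362. Hoxd missed with the 50000 highest peaks (1.43), a pseudocount of 5 (1.12) and no filter (1.56), and ranged from 1.31 to 1.75. In the exact permutation test adjusted over all windows, Hoxa (2.06 by stage, 2.21 by line) and Hoxd (1.56 and 1.96) missed. By line, Hoxb passed with scaling (0.827) and ranged from 0.833 to 1.31, and Hoxd missed with 300 bp around each summit (0.685). Whether the replicate numbers pair the samples was not settled by correlations between lists. Of 18 same-number correlations 10 were above 0.1, with a range of -0.41 to 0.39, and different-number correlations ranged from -0.49 to 0.40. Several calls depend on this choice. With the replicate block, covered share passed in Hoxb by stage (1.09) and by line (1.07). Its interaction passed in Hoxa, Hoxb and Hoxd (limma adjusted p = 0.00495, 0.0406 and 0.0138). Peak number by line passed in Hoxb and Hoxd (limma adjusted p = 0.0349 and 0.0384).

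Regions of 1 stage numbered 5 in the pooled lists (2 asynchronous and 3 mitotic of 90, a pattern of 3.38% and 2.72% of all regions) and those of 1 line 4 (3 G1E-ER4 and 1 G1E, 2.87% and 1.69%), and 0 to 1 by stage without 1 list. Rank calls ranged from 1 to 5 by stage and by line, with 0 by line in the exact permutation test.

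Differences without a call changed sign. With 300 bp around each summit these were Hoxc by line in asynchronous cells (-0.032) and its interaction (0.112), Hoxa (-0.053) and Hoxc (0.184) by stage in G1E-ER4, and Hoxa (-0.171), Hoxb (-0.064), Hoxc (0.080) and Hoxd (-0.089) by line in mitotic cells, and Hoxa minus Hoxd (-0.069 points). With scaling, Hoxc gave -0.069 by stage in G1E, -0.012 by line in asynchronous cells, 0.0015 by stage in G1E-ER4, 0.059 by line in mitotic cells and 0.071 for the interaction. Without all 4 replicate 1 libraries, line in mitotic cells gave -0.48 in Hoxb and -0.12 in Hoxd, and Hoxc peak number by line -0.090 (-0.082 with 50000 peaks). Without asynchronous G1E, Hoxa minus Hoxc was 4.91 and Hoxc minus Hoxd -3.95 points.

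Without 1 list, stage in G1E-ER4 ranged from -0.18 to 0.70 in Hoxa, -0.34 to 0.61 in Hoxb, -0.59 to 0.089 in Hoxc and -0.30 to 0.57 in Hoxd. Line in mitotic cells ranged from -0.33 to 0.45 in Hoxb and -0.49 to 0.17 in Hoxc. Hoxc peak number ranged from -0.081 to 0.11 by line, -0.14 to 0.25 by stage in G1E, -0.25 to 0.087 by line in asynchronous cells and -0.051 to 0.34 for the interaction. Hoxa minus Hoxc ranged from -4.32 to 0.825, Hoxa minus Hoxd from -0.487 to 0.638 and Hoxc minus Hoxd from -0.300 to 4.96 points.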
